A study of Homo sapiens with 6 samples.

Results

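Genes of secretory epithelium and mucins were examined in CAL-27, an established line from a human tongue squamous cell carcinoma, after knockdown of XBP-1s. The 10 genes were chosen by name, as mucins and secretory genes often tied to the spliced form of XBP-1. Earlier results of these data were known at that point, so the choice was not blind to them. They were AGR2, PIGR, MUC1, MUC4, MUC16, MUC20, SPDEF, FOXA1, LCN2 and TFF3. A probe with a matched RefSeq accession was found for 9 of the 10, of 19740 genes with such a probe, and MUC20 was not analysed here. The 9 genes had 16 probes. Each of the 3 shXBP-1s arrays held total RNA of CAL-27 cells stably transduced with an shRNA against XBP-1s, and each of the 3 shCtrl arrays that of CAL-27 cells with the control shRNA. All 6 were 1-colour Agilent arrays. The sources name 1 line and 1 target and do not say whether the replicates were separate cultures, so the p-values measure only the spread between these samples, which may be technical. In bulk RNA, fewer cells of a kind and less RNA per cell cannot be told apart.

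XBP-1s is the transcription factor made when IRE1α splices XBP-1 mRNA under endoplasmic reticulum (ER) stress, and it is known for expanding the secretory apparatus of plasma cells and glandular cells. Mucins are large, heavily O-glycosylated proteins, either secreted as gel or held in the membrane, and their folding in the ER draws on helpers such as AGR2, a protein disulfide isomerase. Squamous epithelium of the tongue is not a classical mucus-secreting tissue, although membrane mucins are made in stratified epithelia.

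Levels are given as log2 signal relative to the 75th percentile of the same array, so that 0 is the 75th percentile. That percentile was a signal of 687.4 to 761.3 in shCtrl and of 792.0 to 983.4 in shXBP-1s. A probe was called when its limma p, adjusted by Benjamini-Hochberg over all 27624 tested probes, was below 0.05 and its change at least 2-fold. Of the 16 probes, 15 were well above background on all 6 arrays, and none was saturated. The remaining probe, 1 of 3 for TFF3, reached that level on all 3 shCtrl and 2 of 3 shXBP-1s arrays. Arrays that shared a scan image identifier in the scanner output were taken as 1 slide, and the slide numbers were assigned here. By this reading the slides were unequal between groups. The shCtrl replicate 1 and all shXBP-1s arrays were on slide 2, and shCtrl replicates 2 and 3 on slide 1. Changes within slide 2 therefore rest on 1 control array. Where shCtrl replicate 1 is left out, no control remains on slide 2, and knockdown and slide cannot be told apart. XBP1 itself (NM_005080) had log2 signals of 1.88, 1.85 and 1.87 on the shCtrl arrays and -0.50, -0.54 and -0.52 on the shXBP-1s arrays. It fell by 2.39 on the log2 scale, as the labels imply, with a standard error of 0.04 and a Benjamini-Hochberg adjusted p of 2.81e-07 in limma. Its probe was averaged over 10 spots on each array, which were 10 readings of 1 RNA sample. The AGR2 and PIGR probes had 1 spot each. Whether the XBP1 probe reads spliced and unspliced mRNA alike is not known here.

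AGR2 and PIGR were the 2 genes called among the 9, and both were lower in shXBP-1s. None was called higher. Over all 16821 tested genes, 3.63% had a probe called lower with none called higher, and 2.78% the reverse. Counted by probe, 2 of the 16 were called, against 4.90% of all tested probes. For PIGR and AGR2, together with XBP1, the bases before the transcription start are shown because the 2 called genes can then be set beside the targeted gene for the short motifs bound by factors of the unfolded protein response. Sequences were taken from RefSeq on GRCh38.p14. Each is the 150 bases just before the start, 5′ to 3′ on the gene's own strand, with CCACG, the core of the ER stress elements, in capitals. All 3 genes lie on the minus strand. The AGR2 stretch is chr7:16805000-16805149, that of PIGR is chr1:206946467-206946616 and that of XBP1 is chr22:28800570-28800719, upstream of 1 of its 2 listed starts.
AGR2: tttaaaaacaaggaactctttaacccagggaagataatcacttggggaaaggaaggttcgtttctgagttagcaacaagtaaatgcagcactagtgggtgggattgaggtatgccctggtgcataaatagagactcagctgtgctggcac
PIGR: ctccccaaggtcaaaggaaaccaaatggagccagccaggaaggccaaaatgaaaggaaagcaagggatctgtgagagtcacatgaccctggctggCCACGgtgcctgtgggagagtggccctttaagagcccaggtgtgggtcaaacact
XBP1: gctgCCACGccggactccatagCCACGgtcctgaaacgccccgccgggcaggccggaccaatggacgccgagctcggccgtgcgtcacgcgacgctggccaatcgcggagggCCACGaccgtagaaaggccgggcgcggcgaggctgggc

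The XBP1 stretch printed here held 3 copies of CCACG. The last of them follows a CCAAT after 9 bases, the full ER stress element (ERSE). The window of the other listed XBP1 start held 2 copies of CCACG and no ERSE. PIGR held 1 CCACG, with no CCAAT at that spacing, and AGR2 held none. The search covered both strands of windows of 300 bases, 250 before and 50 after each start. Windows were listed for 8 of the 10 genes. CCACG was found in 2 of the 8, PIGR and MUC4, and in 38.1% of all 35116 windows. ERSE, searched as CCAAT, 9 bases of any kind and CCACG, was in 0.0769% of all windows. ERSE-II, searched as ATTGG, 1 base of any kind and CCACG, was in 0.0541% and the UPR element (TGACGTGG) in 0.729%. These 3 longer motifs were in none of the windows of the 8 genes. ERSE, ERSE-II and the core overlap, since both longer elements end in CCACG. A match is a description of letters, and its absence says nothing about binding elsewhere.

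AGR2 (NM_006408) fell to about the same share of its control level as XBP1. Before scaling its 3 shCtrl signals were 1327, 1359 and 1450 and its 3 shXBP-1s signals 380.7, 328.4 and 292.9. On the scaled log2 axis these were 0.95, 0.84 and 0.94 against -1.37, -1.45 and -1.43. The groups lay far apart, with each shXBP-1s array well below the lowest control. The mean went from 0.91 ± 0.06 (SD, n = 3) to -1.42 ± 0.04 (SD, n = 3), a log2 fold change of -2.33 (standard error 0.05, 95% interval -2.45 to -2.21). That is a 5.01-fold fall, with a Benjamini-Hochberg adjusted p of 4.28e-07 in limma. The 3 shXBP-1s arrays stood at 20.6%, 19.6% and 19.7% of the control mean for AGR2, and at 19.4%, 18.9% and 19.1% for XBP1. Within slide 2 the AGR2 change was -2.37.

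PIGR (NM_002644), the polymeric immunoglobulin receptor that carries IgA and IgM across mucosal epithelium, fell as well. Before scaling its 3 shCtrl signals were 319.9, 374.5 and 331.2 and its 3 shXBP-1s signals 132.9, 113.9 and 92.6. The scaled log2 signals were -1.10, -1.02 and -1.19 in shCtrl and -2.89, -2.97 and -3.10 in shXBP-1s. No array of one group reached the range of the other. The mean went from -1.11 ± 0.08 (SD, n = 3) to -2.99 ± 0.10 (SD, n = 3), a log2 fold change of -1.88 (standard error 0.07, 95% interval -2.05 to -1.71). This was a 3.68-fold fall with an adjusted p of 2.36e-06 (limma, Benjamini-Hochberg), and the shXBP-1s arrays stood at 29.1%, 27.4% and 25.2% of the control mean. The change within slide 2 was the same to 2 decimals, and the size was smaller, -1.07, where the background was corrected by normexp and arrays were quantile normalised. Both genes stayed called in each of 18 settings in which their change was recomputed.

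**Figure D1:**
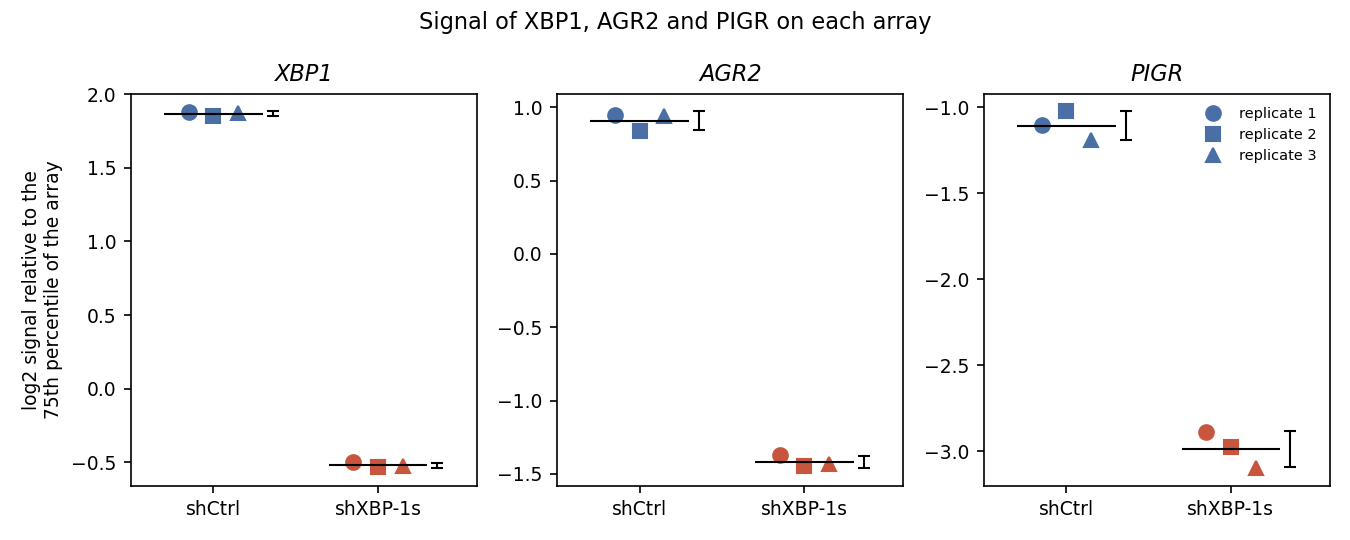
Log2 signal relative to the 75th percentile of the array (y axis, a separate scale in each panel) for XBP1, AGR2 and PIGR on the 3 shCtrl and 3 shXBP-1s arrays. Points are arrays with their replicate number as marker, horizontal lines are group means and the bars beside them are 1 SD (n = 3). In each panel the 3 shXBP-1s points lie below all 3 shCtrl points, with differences between the means of -2.39, -2.33 and -1.88.

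The fitted changes of all 8 probes for MUC1, MUC4 and MUC16 were under 1.5-fold. MUC1, a transmembrane mucin of the apical surface of most epithelia, had log2 signals of 1.23, 1.17 and 1.34 in shCtrl and 1.01, 0.95 and 0.85 in shXBP-1s by its brighter probe (NM_002456). The shXBP-1s arrays were all below the controls on this scale, whereas the signals before scaling overlapped, at 1612 to 1912 in shCtrl and 1428 to 1977 in shXBP-1s. The change was -0.31 on the log2 scale (95% interval -0.46 to -0.17), a 1.24-fold fall with a Benjamini-Hochberg adjusted p of 4.76e-03 in limma, so MUC1 passed the test but not the 2-fold minimum. It kept its sign in 18 of 18 settings and passed in 16, not under normexp (adjusted p = 0.354) nor with quantile normalisation after it (0.0561). The dimmer MUC1 probe (NM_001044392) gave -0.36 (95% interval -0.67 to -0.06), with an adjusted p of 0.0599 that missed the threshold, although its groups did not overlap either, and it passed in 5 of 18 settings.

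MUC4, the membrane mucin that partners the receptor ERBB2, was read by 4 probes that share the accession NM_018406 and so are not independent. The brightest, A_24_P239177, had log2 signals of 0.48, 0.56 and 0.55 in shCtrl and 0.45, 0.54 and 0.50 in shXBP-1s. Its groups overlapped, and the interval of the change, -0.14 to 0.08, lay well within 2-fold. The next, A_24_P239176, gave 0.01 (95% interval -0.15 to 0.17), and A_33_P3417281 gave 0.16 (-0.18 to 0.50). These 3 probes had adjusted p-values of 0.612, 0.904 and 0.433 in limma with Benjamini-Hochberg adjustment, and without shXBP-1s replicate 3 the last gave 0.34 and passed (0.0136). Only the dimmest probe, A_24_P208825, passed, and it was higher in shXBP-1s: -4.91, -4.91 and -4.70 against -4.21, -4.34 and -4.41. Its log2 change was 0.52 (95% interval 0.27 to 0.78, adjusted p = 6.18e-03 in limma with Benjamini-Hochberg adjustment), at signals of 22.9 to 29.2 in shCtrl and 37.3 to 53.3 in shXBP-1s. Its sign turned to -0.57 under normexp background correction alone, a setting that shifted the median of all tested probes to -0.41.

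MUC16, the large tethered mucin that carries the CA125 antigen, had 2 probes with the accession NM_024690, and the groups overlapped for both. The brighter had log2 signals of -2.44, -2.74 and -2.70 in shCtrl and -2.68, -2.59 and -2.91 in shXBP-1s. Its change was -0.10 (95% interval -0.36 to 0.15) and that of the dimmer 0.02 (-0.41 to 0.46). The highest of the 3 shXBP-1s arrays was above 2 of the 3 controls for the brighter probe, and neither probe passed in limma with Benjamini-Hochberg adjustment (adjusted p = 0.502 and 0.940).

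**Figure D2:**
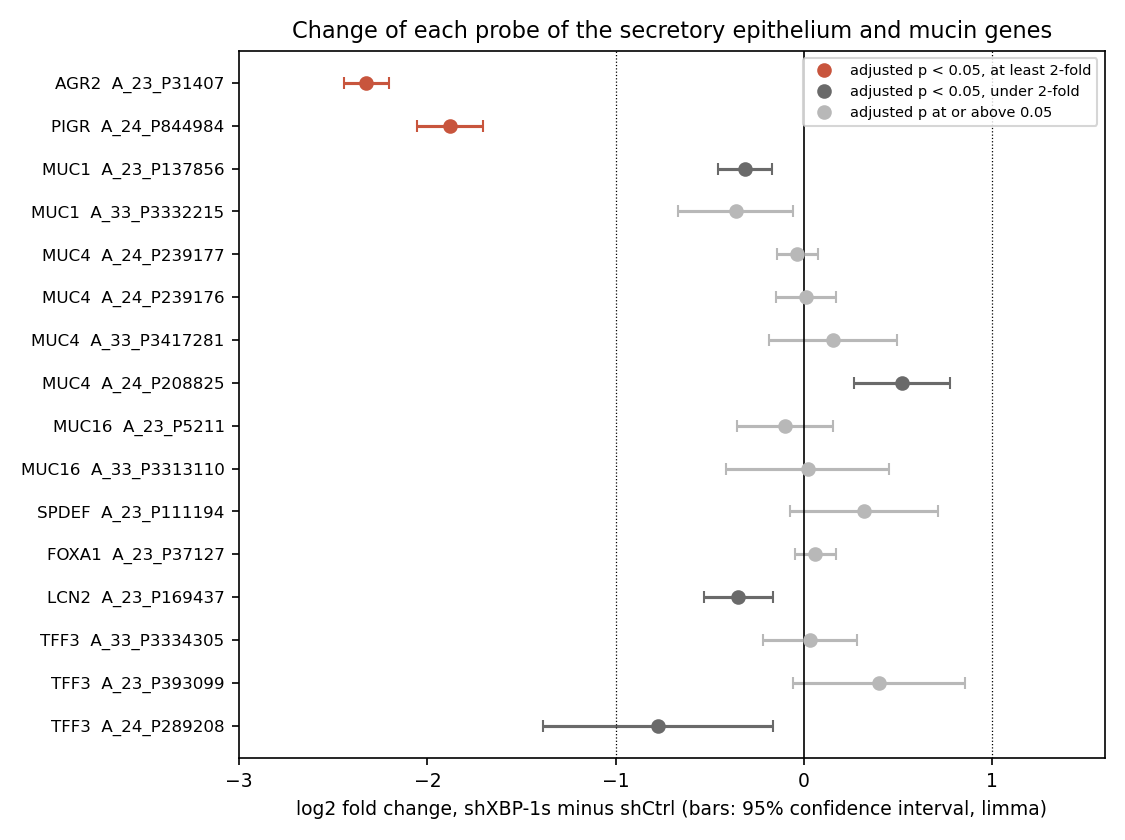
Log2 fold change (x axis, shXBP-1s minus shCtrl) of each of the 16 probes of the 9 genes, with the 95% confidence interval from limma as bars and dotted lines at 2-fold. The AGR2 and PIGR intervals lie wholly beyond 2-fold on the lower side, and of the other probes only the dimmest TFF3 probe has an interval that crosses a 2-fold line.

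With all 6 arrays, neither transcription factor of the list passed. SPDEF (NM_012391), an ETS factor that drives goblet cell differentiation, had log2 signals of -3.52, -4.20 and -4.12 in shCtrl and -3.65, -3.63 and -3.60 in shXBP-1s. The shXBP-1s arrays were tightly grouped and sat above 2 of the controls and below shCtrl replicate 1. The change of 0.32 (95% interval -0.07 to 0.72) had an adjusted p of 0.170 in limma with Benjamini-Hochberg adjustment, and against shCtrl replicate 1 alone, within slide 2, it was -0.11. Without that array the change was 0.54, with an adjusted p of 1.57e-03 in the same fit, so the SPDEF result depends on shCtrl replicate 1. FOXA1 (NM_004496), a pioneer factor that opens chromatin in glandular lineages, had -0.79, -0.88 and -0.83 in shCtrl and -0.77, -0.77 and -0.77 in shXBP-1s. Its groups were apart by a narrow margin, with a change of 0.06 (95% interval -0.05 to 0.17, adjusted p = 0.342 in limma with Benjamini-Hochberg adjustment). Its probe was averaged over 10 spots on each array, which were 10 readings of 1 RNA sample.

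Of the secreted proteins, LCN2 (NM_005564), the siderophore-binding lipocalin of mucosal defence, gave signals before scaling of 15673 to 16974 in shCtrl and 12924 to 18002 in shXBP-1s. After scaling the log2 signals were 4.63, 4.41 and 4.37 in shCtrl and 4.19, 4.15 and 4.03 in shXBP-1s. The scaled values of the groups did not overlap, while those before scaling did. The change was -0.35 (95% interval -0.53 to -0.17), a 1.27-fold fall with a Benjamini-Hochberg adjusted p of 8.65e-03 in limma. It was negative in 18 of 18 settings, between -0.50 and -0.21, and passed in 14. It missed the threshold under normexp (adjusted p = 0.451), with quantile normalisation after it (0.0544), under quantile normalisation alone (0.0539) and by the methods' t-test after Benjamini-Hochberg adjustment over the same probes (0.0575), the other values being limma's.

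TFF3, a trefoil peptide secreted along with mucus, had 3 probes of the accession NM_003226, and they did not move together. The brightest was level, with -4.94, -4.99 and -5.05 in shCtrl and -4.91, -4.90 and -5.06 in shXBP-1s, a change of 0.03 (95% interval -0.22 to 0.28). The second gave 0.40 (-0.06 to 0.86) with overlapping groups, and passed in 2 of 18 settings, at 0.76 with the slide as a block and 0.60 without shCtrl replicate 2. The dimmest, with signals of 8.5 to 12.6 in shCtrl and 6.0 to 8.8 in shXBP-1s, gave -0.77 (-1.39 to -0.16). The adjusted p-values in that order were 0.836, 0.143 and 0.0469 (limma, Benjamini-Hochberg). The dimmest probe entered the main fit only through shCtrl, the group where it was brighter, so its pass is not read as support. It passed in 6 of the 17 settings that gave it a value. That pass was lost without shCtrl replicate 1 or 3 or shXBP-1s replicate 1 or 2 (adjusted p between 0.0981 and 0.147 in limma). No direction can therefore be given for TFF3.

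**Figure D3:**
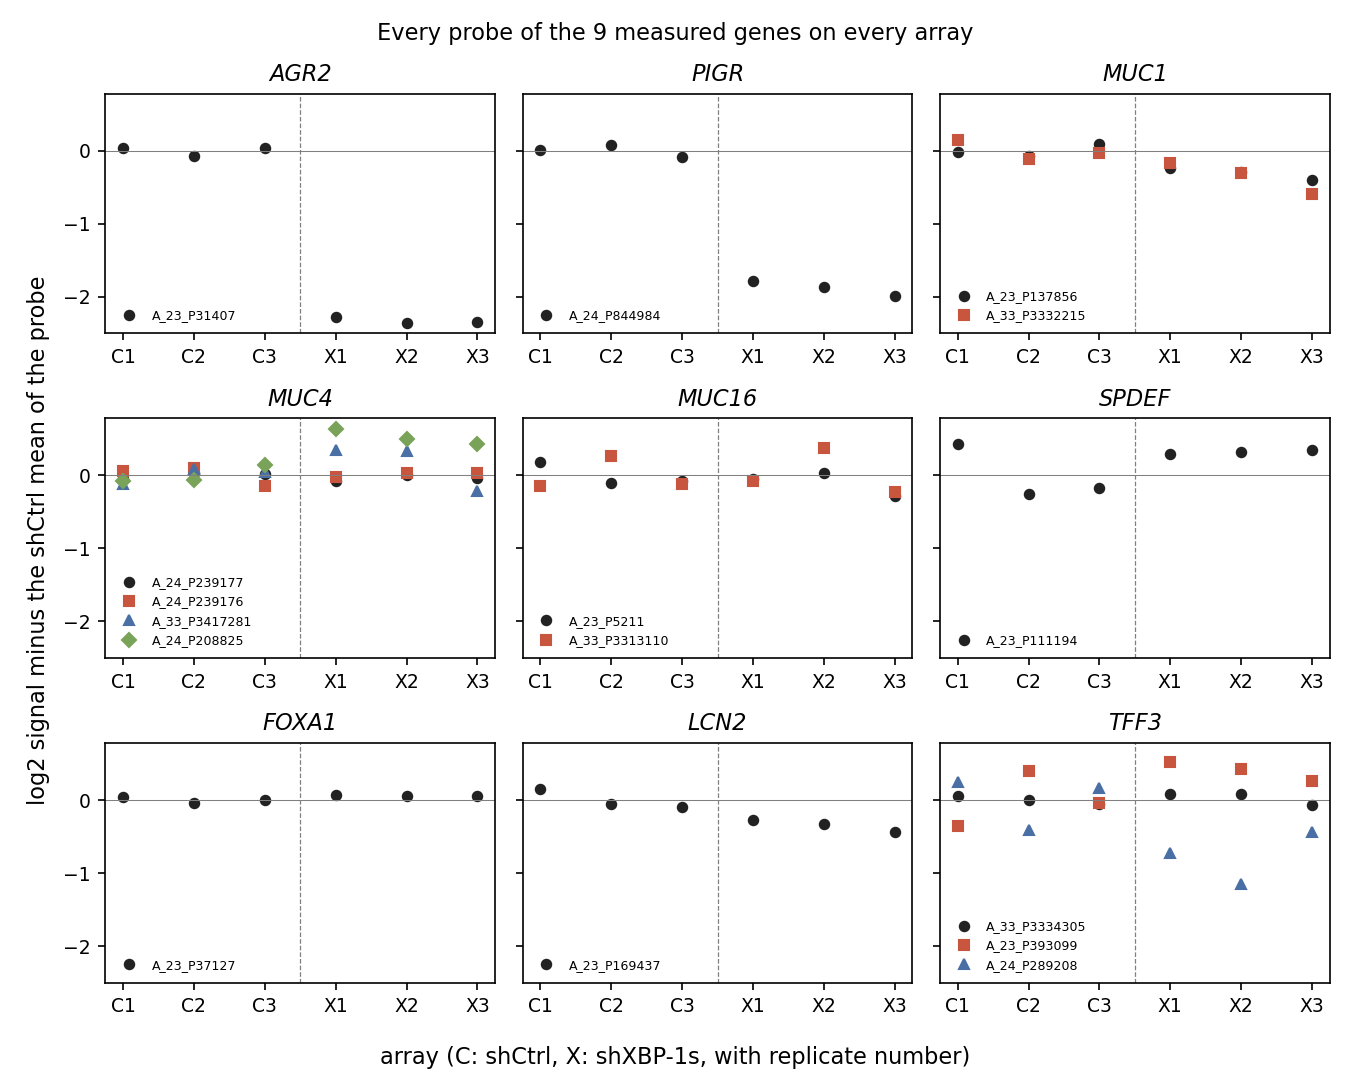
Log2 signal of every probe of the 9 genes on every array, minus the shCtrl mean of that probe (y axis, log2 units, the same scale in all panels), with shCtrl arrays (C) left of the dashed line and shXBP-1s arrays (X) right of it. Only in the AGR2 and PIGR panels do the shXBP-1s points leave the control points by more than 1 log2 unit on all 3 arrays, and the 4 MUC4 probes and 3 TFF3 probes are seen to part from each other.

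Taken by brightest probe, 4 of the 9 genes passed at an adjusted p below 0.05 with a lower level (AGR2, PIGR, MUC1 and LCN2), none with a higher level, and 5 did not pass. Without shCtrl replicate 1, SPDEF passed as higher, in a setting that cannot tell knockdown from slide. Over all 16821 tested genes, 27.5% passed lower and 18.9% higher. The groups did not overlap for 5 of the 9, against 56.5% of all tested genes, so that share was near the background. The 9 changes ran from -2.33 to 0.32 with a median of -0.10, and the median of all tested genes was -0.04. After AGR2 and PIGR, the next lowest change was the -0.35 of LCN2. For a single probe, the smallest p of an exact permutation test on 3 arrays per group is 0.1.

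The gene whose brightest probe was nearest to that of AGR2 over the 6 arrays, after each probe was centred on its shCtrl mean, was XBP1. The root-mean-square difference was 0.05 log2 units. The next was TMT1A, at 0.14, with a change of -2.41. For PIGR the nearest were CHRDL1 (0.07, change -1.83) and ID1 (0.08, change -1.94). MUC1 was nearest to HSD17B4 and KHNYN, and LCN2 to ELOA. MUC4 was nearest to LYSET and VIPR1, MUC16 to CLEC18B and FAM86DP, and SPDEF to SLC2A5 and SCGB1B2P. FOXA1 was nearest to SMAD4 and CLPX, and TFF3 to COG2 and HECTD2-AS1. The likeness mostly follows the size of the change between the groups. For every gene, AGR2 and PIGR included, it therefore adds little to the changes given above. For genes near 0 it has the least content, since many genes are level.

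Lists of related genes were mixed in direction. Of 14 genes for proteins of the ER known as targets of XBP1, all tested, 6 were lower and 2 higher at an adjusted p below 0.05, and their median log2 change was -0.05. Under normexp alone 3 were lower and 3 higher, and 1 was higher without any 1 of shCtrl replicates 2 and 3 and shXBP-1s replicates 1 and 2. The 2 called, both lower, were DNAJB9 (-1.14), a co-chaperone of ER-associated degradation, and HSPA5 (-1.05), the ER chaperone BiP, with adjusted p-values of 2.31e-06 and 2.68e-06 in limma with Benjamini-Hochberg adjustment. Of these, HSPA5 was below 2-fold (-0.95) under normexp with quantile normalisation and was not called under normexp alone. Over all tested genes 2.88% were called lower and 2.30% higher by the brightest probe.

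Other mucins were mostly dim where a probe was matched: 11 of 14 genes had such a probe, and 8 were tested. Of the 8, 3 passed as higher and none as lower, with a median of 0.10. Under normexp alone none passed and the median was -0.66, in a setting that shifted the median of all tested probes to -0.41. That shift also enters the normexp medians of the lists that follow. With the slide as a block, or without any 1 of shCtrl replicate 3 and shXBP-1s replicates 1 and 2, 1 passed. The called gene was MUC21, a membrane mucin of stratified epithelia. No shCtrl array and all 3 shXBP-1s arrays had it well above background, which gives a bound of at least 2.93-fold higher, though its sign turned to -0.65 under normexp alone. It entered the test only through the group where it was bright, so its call is not read as support. A bound of this kind sets the shXBP-1s mean against the lowest signal well above background on the shCtrl arrays, or the probe's own where that was higher. Among enzymes that build O-linked glycans on mucins, 23 of 25 were tested, 9 were higher and 4 lower, with a median of 0.13, against 3 higher and 2 lower with a median of -0.16 under normexp alone. GALNT5 (1.41, adjusted p = 7.91e-05), which starts O-glycan chains, and ST6GALNAC1 (1.20, adjusted p = 9.30e-04), which adds sialic acid to them, were called higher in limma with Benjamini-Hochberg adjustment. Neither was called under normexp with or without quantile normalisation, and ST6GALNAC1 turned to -0.64 under normexp alone.

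Among 13 tested transcription factors of secretory cells other than SPDEF and FOXA1, 4 were lower and 3 higher, with a median of 0.01, against 2 lower and 1 higher with a median of -0.44 under normexp alone. ELF3, an epithelial ETS factor, was the 1 called, and its log2 level went from 0.80 ± 0.08 to -0.47 ± 0.15 (SD, n = 3 each). This was a fall of -1.27 (standard error 0.08, adjusted p = 1.18e-05 in limma with Benjamini-Hochberg adjustment), and ELF3 was called under normexp with and without quantile normalisation too. Of 17 tested secreted and defence proteins of mucosa other than LCN2 and TFF3, 6 were higher and 3 lower, with a median of -0.03, against 2 higher and none lower with a median of -0.75 under normexp alone. PI3, the elastase inhibitor elafin, was called higher (1.37), and DMBT1, a scavenger receptor protein of mucus, was at least 3.48-fold higher, being well above background in shXBP-1s only, with the same limit as for MUC21. PI3 kept its sign but was under 2-fold in both normexp settings, and DMBT1 turned to -0.62 under normexp alone.

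The 14 genes listed as receptors and partners of the proteins above gave 5 higher and 3 lower with a median of 0.07, against 2 higher and 2 lower with a median of -0.18 under normexp alone. LRP2 (megalin), an endocytic receptor that takes up LCN2, was called lower (-1.82, adjusted p = 1.01e-05), and ACKR3, a scavenging chemokine receptor reported to bind TFF3, was called higher (1.32, adjusted p = 4.37e-05), both in limma with Benjamini-Hochberg adjustment. ACKR3 was under 2-fold in both normexp settings. Genes of the NF-kB and IL-17 response of epithelia, a response that includes LCN2 and PIGR, were tested for all 18 listed. Of these, 8 were lower and 6 higher, with a median of 0.16, but 10 were higher and 8 lower after quantile normalisation and 9 higher and 8 lower on the deposited log2 values, so the list had no settled direction. Among the called, IL17C (-2.65), an epithelial cytokine, and SAA2 (-1.75) and SAA1 (-1.28), the acute phase proteins, were lower, and IL36G (2.07), an IL-1 family cytokine, was higher. SAA1 and SAA2 are near-identical, so their signals may be shared, and IL36G was not called under normexp alone.

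**Figure D4:**
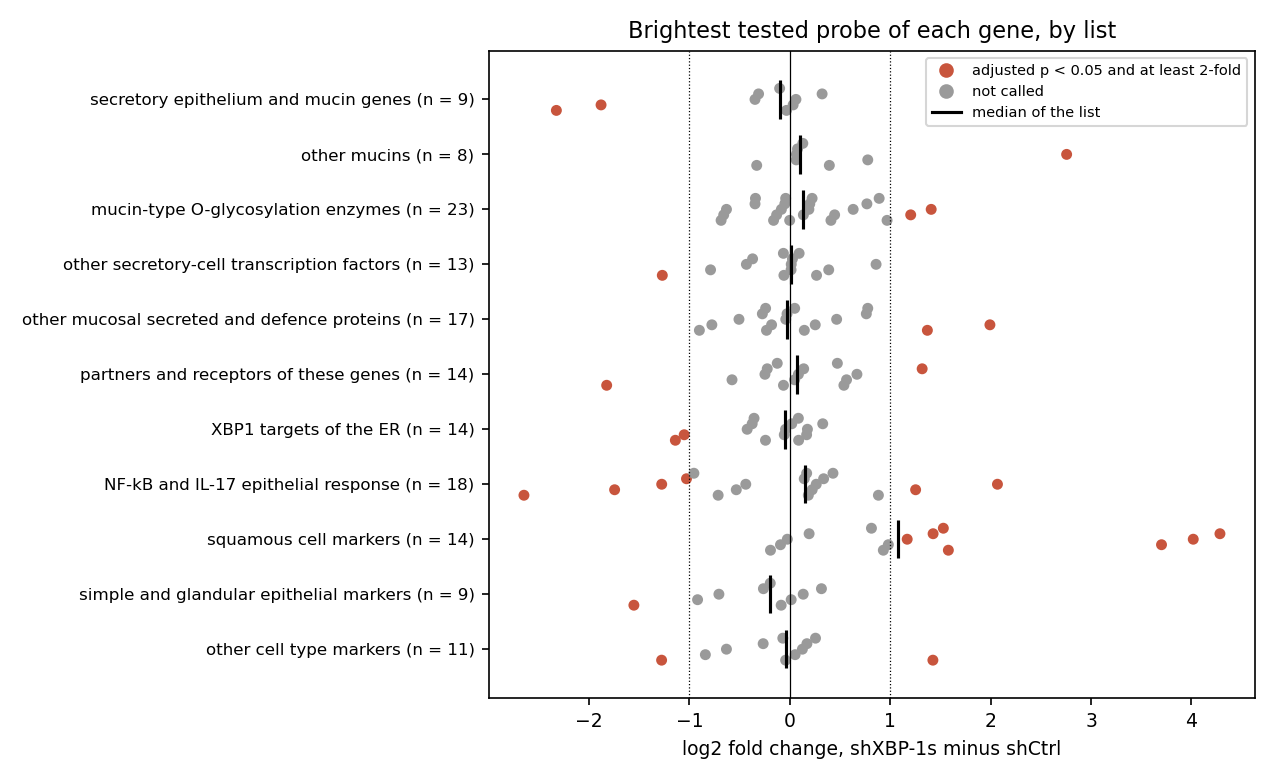
Log2 fold change (x axis, shXBP-1s minus shCtrl) by the brightest tested probe, in the secretory epithelium and mucin genes and in the other gene lists (rows, with the number of tested genes). Points are genes, coloured where called, vertical bars are list medians and dotted lines mark 2-fold. The squamous cell markers have a median of 1.08 and 7 called genes, all higher, whereas the other medians lie between -0.19 and 0.16.

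Squamous cell markers were higher after the knockdown. All 14 squamous cell markers were tested, 11 were higher and none lower at an adjusted p below 0.05, and 7 were called. Under normexp alone 9 were higher, none lower and 6 called. With the slide as a block, where the change rests on shCtrl replicate 1, 10 were higher and 1 lower. The named ones were the keratins KRT6A (4.28), KRT14 (1.58), KRT17 (1.53) and KRT5 (1.43, all log2 changes). KRT6A has near-identical copies in KRT6B and KRT6C, so its signal may be shared. Summed over the 14 brightest probes in units of the 75th percentile, the signal was 7.82 to 7.99 on the shCtrl arrays and 23.7 to 24.1 on the shXBP-1s arrays, and without KRT6A it was 7.56 to 7.75 and 18.7 to 18.9. Of the 14, 13 were well above background on all 6 arrays, so the remaining gene entered the test through 1 group only. CAL-27 thus carried squamous markers on every array, as its label as a squamous line implies. Of the 9 markers of simple and glandular epithelium, all well above background on all 6 arrays, 4 were lower and 1 higher, with a median of -0.19. After quantile normalisation, with or without normexp, 3 were lower and 3 higher, so no direction is given for this list. CLDN3, a tight junction claudin, was called lower (-1.55, standard error 0.11, adjusted p = 2.60e-05 in limma with Benjamini-Hochberg adjustment), but was under 2-fold (-0.72) under normexp with quantile normalisation. The summed signal of the 9 was 125.2 to 131.1 in shCtrl and 101.4 to 112.0 in shXBP-1s. This difference lay in the keratins KRT18 (log2 change -0.71) and KRT8 (-0.92), named after their values were seen, and the sum of the other 7 overlapped at 71.2 to 73.0 and 68.5 to 77.6. The part of either marker list in the levels of AGR2 and PIGR was not tested.

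Markers of blood, endothelial and stromal cells, 11 of 12 tested, gave a summed signal of 5.57 to 7.48 in shCtrl and 3.80 to 4.06 in shXBP-1s. Much of that sum was CD14 (log2 change -0.84), a monocyte marker named after its values were seen, and without it the sum was 1.66 to 1.76 and 1.25 to 1.29. Of them 4 were lower and 1 higher, or 3 and 2 without shCtrl replicate 1. The called genes were PDGFRB (-1.28), a stromal receptor, and DCN (1.43), a stromal proteoglycan, which turned to -0.32 under normexp alone. The remaining gene, COL3A1, a collagen of fibroblasts, was not well above background on any array. The part of these markers in the changes of AGR2 and PIGR was not tested.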

How the data were processed

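The members and gene lists were chosen with earlier results of these data known. mRNA was profiled in CAL-27 cells, shXBP-1s (n = 3) and shCtrl (n = 3), with groups and replicate numbers taken from the labels. The authors deposited Agilent Feature Extraction 11.0.1.1 output, in which each spot has an intensity after background subtraction, not normalised between arrays. A deposited table of log2 values served as an alternative. The submitters' processing notes name RMA, and how that table was made is not given in the sources used here. The labels describe NimbleGen labelling, whereas the scanner files and the methods give an Agilent array.

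Of 44495 spots per array, 1377 were controls and 230 to 377 carried an outlier flag, and these were dropped. The log2 intensity minus the 75th percentile of its array was averaged over the spots of a probe. Of 34127 probes, 19 were missing on an array. The 27624 well above background (over 50% of spots) on all 3 arrays of a group entered a 2-sided test by limma 3.58.1 in R 4.3.3 (lmFit, eBayes with trend), with Benjamini-Hochberg adjustment. Between 82.1% and 84.8% of spots per array were well above background, and 3 arrays per group limit the precision. Symbols came from matching accessions to RefSeq of GRCh38.p14 (25771 probes). A gene is represented by its brightest tested probe unless stated. The script was tested on simulated data.

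Named genes were the listed genes, XBP1, up to 4 called genes of each other list with the smallest p, and the 2 nearest genes of each measured gene, of which 1 is not reported here. The array annotation names hg19, so probe positions are not given. Alternatives were normexp background correction (offset 50, on the median spot signal, since no mean is in the files), quantile normalisation, the deposited log2 values, other filters, flagged spots kept, no trend, the methods' t-test on the same values, other fold thresholds, replicate or slide as a block, and each array left out in turn.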

Additional observations from a re-analysis of the deposited data

How the results depend on the processing

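AGR2 and PIGR were the genes called in each of the 20 alternatives run except those with a lower fold threshold. Counted by any probe, 3 genes passed at 1.5-fold and 6 with no minimum fold. TFF3 was in both counts by its dimmest probe alone. With no minimum fold MUC1 and LCN2 passed as lower, and MUC4 as higher by its dimmest probe alone. Of all 27624 tested probes, 4129 passed at 1.5-fold and 11516 with no minimum fold. The share of all genes by any probe is not given at these thresholds. Of all probes, 1354 were called, against 473 under normexp background correction, 318 under normexp with quantile normalisation, 11516 with no minimum fold and 4129 at 1.5-fold, and 1275 to 1750 when single arrays were left out. The same-numbered arrays had correlations of their deviations of -0.02, 0.12 and -0.12, so no pairing by replicate number was seen. With 3 arrays per group these correlations cannot exclude a pairing. With the replicate number as a block 1381 probes were called, and the 2 called genes were unchanged in number.

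Under normexp alone, which shifted the median of all tested probes to -0.41, the sign turned for SPDEF (-0.45), FOXA1 (-0.027), MUC4 A_24_P208825 (-0.57), MUC16 A_33_P3313110 (-0.71), TFF3 A_23_P393099 (-0.69) and TFF3 A_33_P3334305 (-0.75). With the slide as a block, where the change rests on shCtrl replicate 1, it turned for SPDEF (-0.11), MUC4 A_24_P239177 (0.018), MUC4 A_24_P239176 (-0.044) and TFF3 A_33_P3334305 (-0.019). MUC4 A_24_P239177 was also positive after quantile normalisation (0.016) and on the deposited log2 values (0.025). With an array left out, MUC16 A_33_P3313110 ran from -0.16 (without shXBP-1s replicate 2) to 0.15, and was below 0 without shCtrl replicate 1 or 3 too. MUC4 A_24_P239176 ran from -0.064 (without shCtrl replicate 3) to 0.060. None of these probes was called at the 2-fold minimum in any setting, and the cause was not tested. Dim probes, such as those of TFF3, limit what can be said of small changes.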
